A study of Mus musculus with 16 samples.

Results

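The subject is the genotype by feeding interaction in the liver: for each gene, the difference between knockout and control livers after refeeding, minus the same difference in the fasted state. It is the same number as the response to refeeding in knockout livers minus the response in control livers. It was taken from the 16 libraries of the series, all 16 of which belong to it, and from every gene that could be tested, 14488 of the 25803 genes in the deposited tables. The mice were males on a high-fat diet for 12 weeks, and livers were taken after a fast of 16 h, or after a fast of 16 h followed by 6 h of refeeding. Each feeding state had control mice, called wild type in the design text, and LKO mice, in which hepatic Cpt1a was ablated, giving fasted control, fasted LKO, refed control and refed LKO with 4 libraries each. All 4 groups share the sex and the diet, and the age and the way the knockout was made are not given in the sources used here. The labels number the samples of a group but do not say that they came from separate animals, so the p-values measure only the spread between these libraries, which may be technical.

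CPT1A sits in the outer mitochondrial membrane and makes the acylcarnitines with which long-chain fatty acids enter mitochondrial oxidation, the main hepatic fuel pathway of fasting. Fasting lowers insulin, mobilises fat from adipose tissue and activates PPARA, a nuclear receptor for fatty acids, whereas refeeding raises insulin, turns on the lipogenic and sterol-synthesis programmes of the SREBP factors and restores secretory protein synthesis. Adult hepatocytes are mostly quiescent but keep the capacity to re-enter the cell cycle, and the genes of DNA replication are then switched on together by factors of the E2F family.

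Libraries held 14721601 to 24618230 counts, and TMM scaling factors ran from 0.941 to 1.07. Values per library are CPM, the counts of a gene relative to the TMM-scaled total of the library, and libraries carry the names of their columns. Fasted control livers are S40 to S43 and refed control livers S48 to S51, while fasted LKO livers are S44 to S47 and refed LKO livers S52 to S55. Cpt1a, the targeted gene, averaged 487 CPM in fasted and 457 CPM in refed control livers, and 101 CPM in fasted and 54.2 CPM in refed LKO livers. Its genotype difference was −2.28 on the log2 scale in the fasted and −3.08 in the refed state, and the interaction of −0.80 (SE 0.31) did not pass (edgeR adjusted p = 0.206). Genes were tested with edgeR's quasi-likelihood test and Benjamini-Hochberg adjustment over all 14488 genes, named below as the edgeR adjusted p, and a gene is called where that p is under 0.05. Markers of hepatocytes had a median interaction of −0.02 over 8 genes, none of them called. In bulk liver, fewer cells of a type and less RNA per cell cannot be told apart.

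The interaction was called for 78 genes, 0.538% of those tested, 45 with a positive value (0.311%) and 33 with a negative one (0.228%). Under upper quartile scaling the split was 43 against 65, DESeq2 called 467 genes, and removing trends with gene length and GC content left 26. In that last setting 52 of the 78 lost their call. By deposited gene length, the 12 genes named for the largest negative interactions ran from 3438 to 11457 bases. The 12 named for the largest positive ones ran from 1291 to 8854 bases. The part of gene length in the calls was not tested. At an unadjusted p under 0.05 there were 2397 genes (16.5%). The called genes had a median absolute interaction of 0.96 on the log2 scale, against 0.24 over all genes tested, and the call itself selects for size. They comprised 69 protein-coding genes, 6 lncRNAs, 1 miRNA, 1 mitochondrial tRNA and 1 processed pseudogene.

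Most called genes were ones whose genotype difference passed in 1 feeding state. The fasted difference alone was called in 59 (10.7% of all genes) and the refed difference alone in 17 (2.12%). In the remaining 2, Ccng2 and Pold2, both were called in opposite directions, which held for no other gene of the 14488. The genotype difference was larger in the fasted state for 60 of the 78 (76.9%), against 56.4% of all genes. It had opposite signs in the 2 states for 63 of them (80.8%), against 43.3% of all genes, but most of the smaller differences did not pass. Seen as a refeeding response, 20 were called in control only (8.99% of all genes) and 39 in LKO only (11.6%). Another 3 were called in both in the same direction (6.34%) and 16 in both in opposite directions (0.124%). In the background, 12.2% of all genes were called for the genotype in the fasted state, 3.63% in the refed state, 15.4% for refeeding in control and 18.1% for refeeding in LKO. These calls come from the same fit as the interaction and are not independent of it.

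The libraries show the same shapes directly. In 57 of the 78 genes the 4 libraries of 1 group lay wholly above or wholly below the other 12, against 10.6% of all genes. Fasted LKO stood apart most often, above in 14 genes (1.9% of all genes) and below in 13 (1.63%), followed by fasted control, above in 10 (1.89%) and below in 2 (1.24%). Refed LKO was above in 10 (1.39%) and below in 3 (0.6%), and refed control below in 5 (0.959%) and above in 0 (0.994%). The count and the call rest on the same values.

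**Figure D1:**
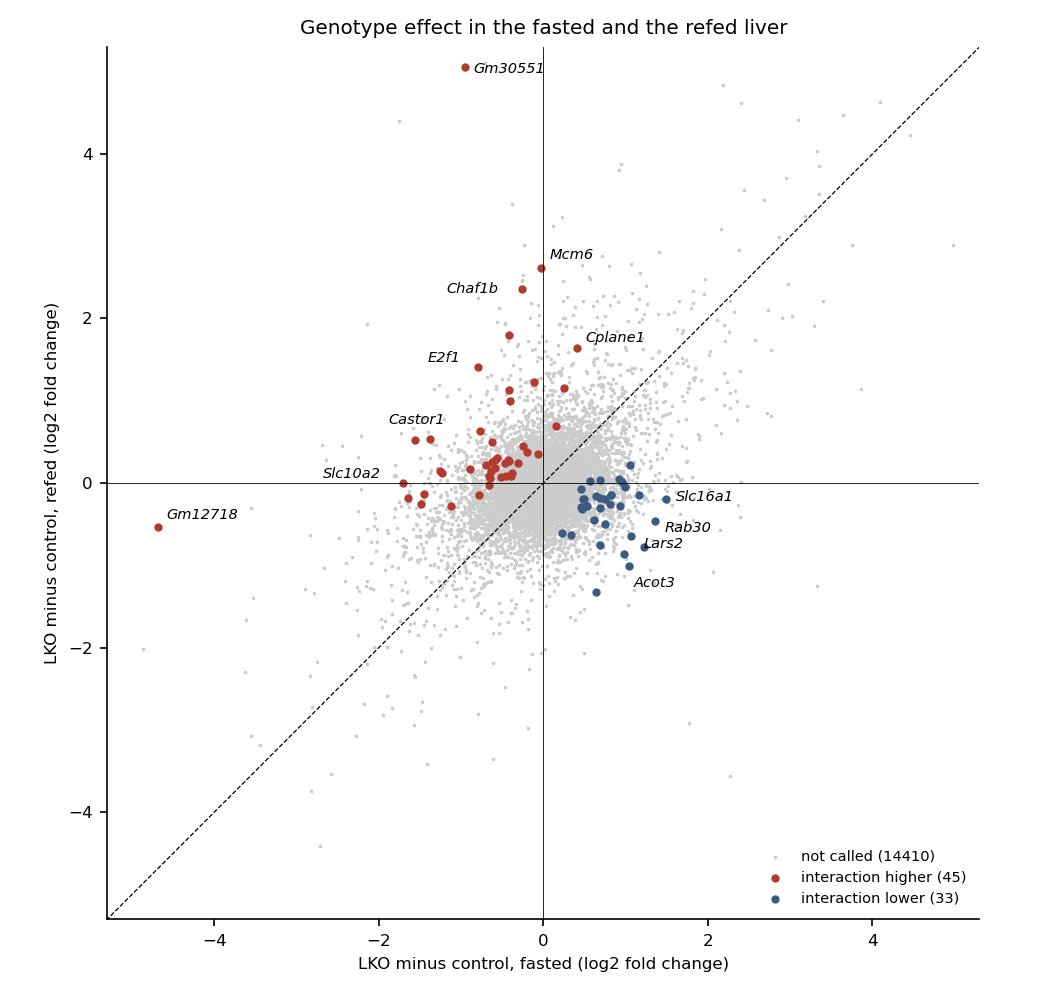
Genotype difference (LKO minus control, log2 fold change) of each tested gene in the fasted liver (horizontal) and in the refed liver (vertical), with the 45 genes of positive interaction in red, the 33 of negative interaction in blue and uncalled genes in grey. On the dashed line the 2 differences are equal, called genes lie away from it, and 12 genes lie outside the axes.

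Genes of DNA replication were prominent among the positive interactions, and in 23 of 30 the refed LKO libraries lay wholly above the other 12, against 1.39% of all genes. Of a list of 32 replication genes 30 were tested, and all 30 had a positive interaction, with a median of 1.21 on the log2 scale against −0.01 over all genes. This list, like the others, was chosen with earlier results of these data known. Its counts therefore describe the list and are not an independent test. Called were 4 (0.311% of all genes were called higher), namely Mcm6, Chaf1b, Gins1 and Rpa2, and 24 had an unadjusted p under 0.05, against 16.5% of all genes. In refed livers 23 of the 30 rose in LKO over control (2.28% of all genes did), with a median difference of 1.31, and in fasted livers 0 were called. From fasting to refeeding 27 rose in LKO (9.28% of all genes) and 0 rose or fell in control (7.79% and 7.65%).

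The promoters of some members with large interactions are shown, because motifs of the E2F family are known in promoters of this class, apart from these data. The sequences are those of RefSeq on build GRCm38.p6, 250 bases before to 50 after the transcription start, 5′ to 3′ in the direction of the gene, and capitals mark a match to TTTCCCGC, TTTCGCGC, TTTGCCGC or TTTGGCGC on either strand. Mcm6 (chr1:128359656-128359955, minus strand) had 3 matches, of which a pair overlap in opposite directions within 1 capital run. Cdc6 (chr11:98907901-98908200, plus strand) had 1, Uhrf1 had 1 in the second of its 2 promoters (chr17:56304063-56304362, plus strand), and Chaf1b (chr16:93883651-93883950, plus strand) had 0.
Mcm6: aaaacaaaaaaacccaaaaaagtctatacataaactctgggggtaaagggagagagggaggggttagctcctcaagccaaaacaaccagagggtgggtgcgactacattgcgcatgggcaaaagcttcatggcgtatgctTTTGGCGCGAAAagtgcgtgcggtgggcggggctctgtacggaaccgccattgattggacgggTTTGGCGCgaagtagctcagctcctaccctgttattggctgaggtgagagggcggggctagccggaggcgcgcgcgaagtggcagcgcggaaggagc
Cdc6: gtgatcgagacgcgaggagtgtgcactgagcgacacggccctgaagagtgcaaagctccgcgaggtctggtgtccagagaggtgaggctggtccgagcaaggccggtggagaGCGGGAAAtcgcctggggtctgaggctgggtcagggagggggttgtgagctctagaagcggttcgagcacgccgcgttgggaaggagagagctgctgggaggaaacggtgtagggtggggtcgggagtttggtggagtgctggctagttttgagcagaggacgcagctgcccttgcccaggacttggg
Uhrf1: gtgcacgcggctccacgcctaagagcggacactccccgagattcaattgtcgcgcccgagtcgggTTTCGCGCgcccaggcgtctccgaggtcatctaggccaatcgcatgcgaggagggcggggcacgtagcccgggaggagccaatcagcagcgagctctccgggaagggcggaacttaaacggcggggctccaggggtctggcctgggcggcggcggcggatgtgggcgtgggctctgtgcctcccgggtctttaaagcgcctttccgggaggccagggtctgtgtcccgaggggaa
Chaf1b: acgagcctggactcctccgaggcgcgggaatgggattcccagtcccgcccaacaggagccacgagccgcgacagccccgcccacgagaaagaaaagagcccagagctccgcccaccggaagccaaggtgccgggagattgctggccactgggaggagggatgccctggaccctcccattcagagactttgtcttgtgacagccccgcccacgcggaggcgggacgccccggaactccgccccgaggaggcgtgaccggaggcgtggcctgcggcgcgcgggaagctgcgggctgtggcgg
Of the replication genes, 23 had a promoter in the RefSeq table, and 11 of these (47.8%) held a match, against 4.45% of the 10547 tested genes with a promoter. Among the genes with a positive interaction 6 of 33 held one (18.2%), and among those with a negative interaction 0 of 23. The 6 include Mcm6 of the replication list, so these shares are not independent of each other. The short pentamer CCAAT, counted on both strands, was in 69.6% of the replication genes and 42.8% of all. A match describes letters in this window and no binding, and the part of E2F factors in these levels was not tested.

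Among the replication genes, Mcm6 (ENSMUSG00000026355, chromosome 1 from 128259327 to 128287401, minus strand, in mm39, the build that the submitters' notes name) had the largest called interaction of the protein-coding genes. Mcm6 is a subunit of the ring-shaped helicase that opens DNA at the fork. It stood at 49.9, 16.2, 11.9 and 22.8 CPM in refed LKO, and between 1.36 and 4.86 CPM in the 12 other libraries. Every refed LKO library was thus above every other, and S52 was the highest. The interaction was 2.64 (SE 0.56, edgeR adjusted p = 0.0438), kept in 4 of the 16 fits that leave out 1 library. The other helicase subunits of the list were higher in refed LKO than in refed control by 1.92 for Mcm2, 1.81 for Mcm3, 1.69 for Mcm4, 2.76 for Mcm5 and 1.28 for Mcm7 on the log2 scale, and all 5 were called in that contrast. Their interactions of 1.21, 1.58, 1.07, 2.04 and 0.98 did not pass (edgeR adjusted p between 0.0782 and 0.243).

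Gins1, which with the GINS complex holds the helicase active, was at 10.7, 6.28, 6.24 and 6.54 CPM in refed LKO. In the 3 other groups it lay between 2.42 and 4.03 CPM. Its interaction of 1.54 (SE 0.26, edgeR adjusted p = 0.0193) was kept in 15 of the 16 fits that leave out 1 library. Rpa2, a subunit of the protein that coats single-stranded DNA, was at 21.4, 13.5, 11.8 and 16.6 CPM in refed LKO against 5.84 to 9.64 CPM elsewhere, and its interaction was 1.35 (SE 0.24, edgeR adjusted p = 0.0294). Neither gene was called between the genotypes in the fasted state, where the differences were −0.41 and −0.12.

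Loading of the helicase and copying of chromatin followed the same pattern of levels. Cdc6, a loader of the helicase at origins, was at 5.07, 1.18, 1.79 and 2.56 CPM in refed LKO and at 0.0497 to 0.569 CPM in the other libraries. Uhrf1, which maintains DNA methylation on new strands, was at 21.0, 3.73, 6.92 and 9.96 CPM against 0.371 to 1.51 CPM. Their interactions, 3.77 (SE 1.01) and 3.01 (SE 0.77), were the largest of the list but did not pass (edgeR adjusted p = 0.0801 and 0.0711), whereas their refed differences of 3.39 and 3.12 did. Outside refed LKO the levels of Cdc6 were near the limit of detection, so the size of its log2 values is uncertain. Of the polymerase genes, Pole (2.42, SE 0.55) and Pold1 (1.13, SE 0.26) did not pass in the interaction (edgeR adjusted p = 0.0556 and 0.0579) and rose in refed LKO by 1.95 and 1.13. Pcna, the sliding clamp, rose in refed LKO by 0.72 with an interaction of 0.78 (edgeR adjusted p = 0.14). Mcm10 was the exception in level, at 66.6 to 156 CPM with overlapping groups, and none of its contrasts passed. The members Orc1 and Fen1 were below the filter on low counts.

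Chaf1a and Chaf1b encode subunits of chromatin assembly factor, which places histones behind the fork. Chaf1b was at 7.98, 3.47, 2.84 and 3.64 CPM in refed LKO and at 0.339 to 1.49 CPM in all other libraries, and its interaction was 2.62 (SE 0.51, edgeR adjusted p = 0.0334). Chaf1a, which is not on the list, was at 9.82, 4.25, 4.02 and 6.97 CPM against 0.808 to 2.27 CPM, with an interaction of 2.22 (SE 0.42, edgeR adjusted p = 0.0328). In both genes no other library reached the lowest refed LKO library. The annotated span of Chaf1a overlaps that of Ubxn6 on the opposite strand, and whether counting used strand is not given in the sources used here.

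E2f1 (ENSMUSG00000027490, chromosome 2 from 154401327 to 154411812, minus strand, mm39), a transcription factor for genes of the S phase, was itself among the called genes. Its levels in refed LKO were 21.4, 7.78, 10.8 and 13 CPM. In fasted control they were 6.26, 5.60, 6.07 and 5.68, in fasted LKO 2.15, 4.87, 2.13 and 4.54, and in refed control 5.49, 5.31, 4.54 and 4.55 CPM. Refed LKO was highest and all 4 fasted LKO libraries were below all fasted control libraries. The interaction was 2.21 (SE 0.41, edgeR adjusted p = 0.0328), made of a refed difference of 1.42 that passed and a fasted difference of −0.80 that did not.

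Of 19 tested regulators of the G1 and S phases, 11 had a positive interaction, and the median was 0.10. E2f1 was the 1 called (0.311% of all genes were called higher). In refed LKO 16 of the 19 had a positive difference, with a median of 0.43, and 2 were called higher (2.28% of all genes). E2f2, its close relative, had an interaction of 2.47 (SE 0.56, edgeR adjusted p = 0.0553) at 7.16, 1.70, 2.84 and 3.25 CPM in refed LKO. Its fasted LKO libraries, at 0.448 to 0.932 CPM, were all below fasted control, at 1.26 to 2.35 CPM. Ccnd1, the cyclin that starts G1 progress, was at 40.8, 15.8, 31.8 and 59.1 CPM in refed LKO and at 9.71, 9.29, 24.0 and 21.5 CPM in refed control, and none of its contrasts passed.

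Mitotic genes were low throughout. Of 20 listed 16 were tested, 15 had a positive interaction with a median of 1.03, and 0 were called. Top2a, the topoisomerase of chromosome separation, was at 5.94, 1.24, 1.42 and 3.25 CPM in refed LKO and at 0.319 to 1.43 CPM elsewhere, so the groups overlapped. Cdk1, the mitotic kinase, was at 6.04, 1.64, 0.989 and 2.56 CPM in refed LKO. Both rose in refed LKO over refed control, by 2.17 and 1.93, while their interactions of 2.24 and 2.40 did not pass (edgeR adjusted p = 0.157 and 0.114). Mki67, a marker of cycling cells, was at 1.64, 0.981, 0.865 and 0.866 CPM in refed LKO within the range of the other groups, and none of its contrasts passed.

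**Figure D2:**
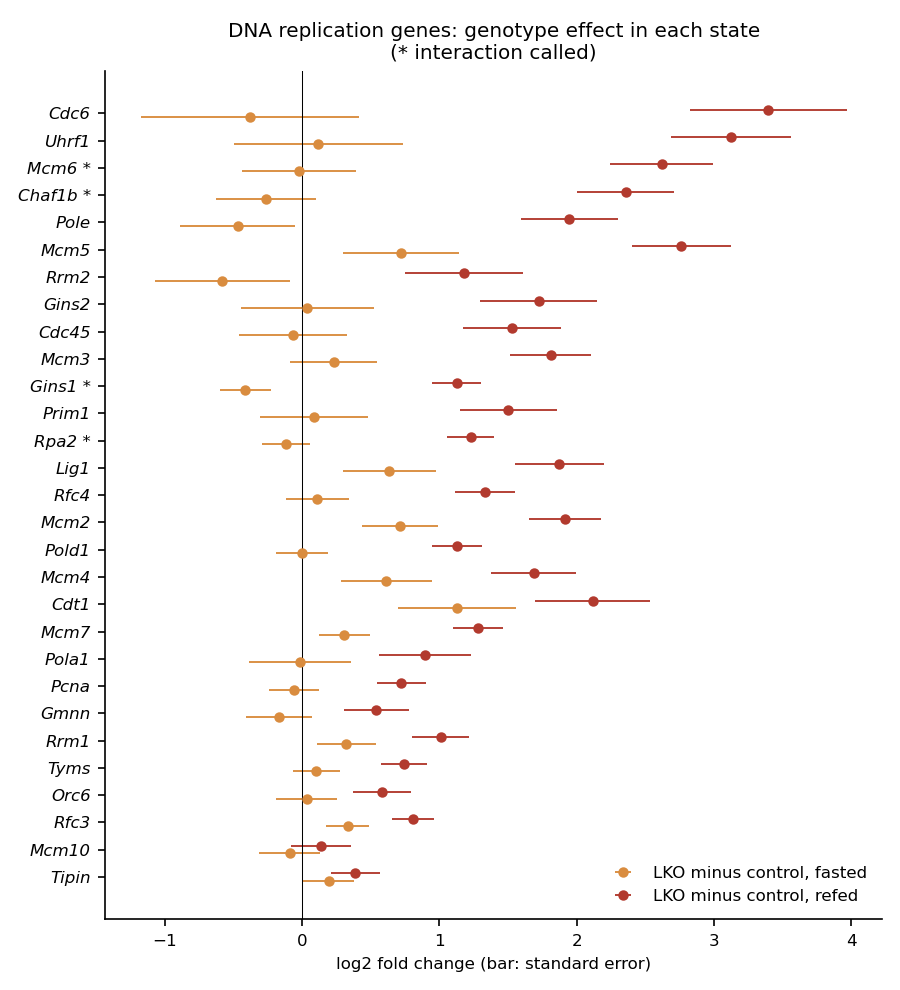
Genotype difference (LKO minus control, log2 fold change, bars are standard errors) of 29 of the 30 tested replication genes in fasted (orange) and refed (red) livers, ordered by interaction, with a star on the 4 called genes. Refed values lie above 0 for all 29 genes drawn, and fasted values scatter around 0.

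Several called genes outside the list also act in replication or in making its precursors; they were picked out after their values were seen. Pold2, the accessory subunit of DNA polymerase delta, was at 21.3, 27.7, 18.6 and 22.3 CPM in refed LKO and at 9.78, 13.4, 9.25 and 10.4 CPM in fasted LKO. Both control groups lay between, at 13.5 to 18.3 CPM, so LKO was the lowest group after fasting and the highest after refeeding. It fell by 0.63 in fasted LKO and rose by 0.50 in refed LKO, with an interaction of 1.13 (SE 0.19, edgeR adjusted p = 0.0193). Rfc2, part of the clamp loader, differed in another way: refed control was low, at 24.1, 26.8, 26.1 and 25.7 CPM against 30.1 to 46.9 CPM elsewhere, and the interaction was 0.54 (SE 0.11, edgeR adjusted p = 0.0426). Dtymk, which phosphorylates thymidylate, was at 39.3, 31.2, 28.4 and 35 CPM in refed LKO and at 17.6 to 26.6 CPM elsewhere (interaction 0.70, SE 0.15, edgeR adjusted p = 0.0426).

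The library S52 held the highest refed LKO level of Mcm6, Gins1, Rpa2, Cdc6, Uhrf1, Chaf1a, Chaf1b and E2f1. The mean log2 level of the 30 genes, as the deviation from the mean of all 16 libraries, was 1.83, 0.68, 0.74 and 1.20 in refed LKO and −0.53 to −0.05 in the other 12 libraries. Without S52 the median interaction was 0.90, and the refed calls were 17 to 23 over all fits that leave out 1 library. Interaction calls among the 30 were 4 without S52, 0 without the refed control library S48 and 1 without S43, S44, S50 or S55. The most among fits that leave out 1 library was 5, without S53. Calls among the 30 were 12 under DESeq2, 4 under upper quartile scaling, 2 under limma-voom and 2 with length and GC trends removed. Over all genes these settings called 261, 43, 48 and 16 higher, in that order. Marker genes of other cells gave these values. Lymphocyte markers summed to 28.3 to 59.3 CPM in refed LKO and 32.7 to 47.1 CPM in fasted LKO, against 11.3 to 23.2 CPM in fasted control and 13.9 to 21.2 CPM in refed control, 8 of 9 were tested, Ms4a1 being below the filter, and 0 had a called interaction, with a median of 0.12. Jchain, of antibody-secreting cells, was 3.35 higher in fasted LKO and 3.86 higher in refed LKO, both called. Macrophage markers summed to 239 to 362 CPM in refed LKO and 316 to 463 CPM in fasted LKO. In control livers they summed to 262 to 476 CPM after the fast and 225 to 864 CPM after refeeding. Of the 8 tested, 1 had a positive interaction and 0 were called, with a median of −0.62. Red blood cell markers had a positive interaction in 4 of 4 tested, with a median of 1.11 and 0 calls. They summed to 367 to 1230 CPM in fasted control, 285 to 488 CPM in fasted LKO, 258 to 714 CPM in refed control and 211 to 923 CPM in refed LKO, where S52 had the highest mean log2 level, 1.04. The part of these cells in the replication genes was not tested.

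Cholesterol synthesis gave a large median interaction with no call, and 1 control library weighed on it. All 20 listed enzymes were tested, 19 had a positive interaction, and the median was 1.32. In refed LKO 7 rose over control (2.28% of all genes) and in fasted LKO 1 did (5.75%), where 1 of 20 is near the share. Refeeding raised 17 in LKO (9.28%) and 3 in control (7.79%). In control 19 of the 20 refeeding estimates were positive, with a median of 0.70 against 0.01 over all genes. Of the 15 with a promoter in the RefSeq table, 93.3% held CCAAT and 0 the E2F-type letters. Hmgcs1, which makes the precursor of mevalonate, was at 122, 490, 284 and 375 CPM in refed LKO and at 47.7, 142, 53 and 43.4 CPM in refed control. The refed control library S49 thus exceeded the lowest refed LKO library, S52. Sqle, which oxidises squalene, had the same order, with 25.4, 130, 82.6 and 89.6 CPM against 5.62, 40.5, 2.59 and 3.73 CPM.

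Hmgcs1 and Sqle rose in refed LKO by 2.15 and 2.64, as did Mvk, the mevalonate kinase, by 1.62. The interactions were 1.55, 1.83 and 1.76 for Hmgcs1, Sqle and Mvk (edgeR adjusted p = 0.202, 0.374 and 0.133). Hsd17b7, a late enzyme of the pathway, was the negative one at −0.46, with LKO above control in both states. Fdps, which makes farnesyl diphosphate, had the largest value of the list, 2.33 (SE 1.16, edgeR adjusted p = 0.329).

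Without S49, 13 of the 20 had a called interaction, where 130 of all 14749 genes tested were called higher. In that fit the median was 1.81, and 19 rose in refed LKO. No other fit called an interaction in this list. Without S50, S51, S53 or S55 the refed calls were 1 each. The mean log2 level of the list was 1.13 in S49 against −0.84 to −0.33 in the other refed control libraries, and 0.51 in S52 against 1.37 to 2.01 in the other refed LKO libraries. S49 also held the highest summed macrophage markers, 864 CPM, with Marco, a scavenger receptor of Kupffer cells, at 192 CPM, where the other 15 libraries had 4.14 to 34.6 CPM. The part of that library's composition in these values was not tested.

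**Figure D3:**
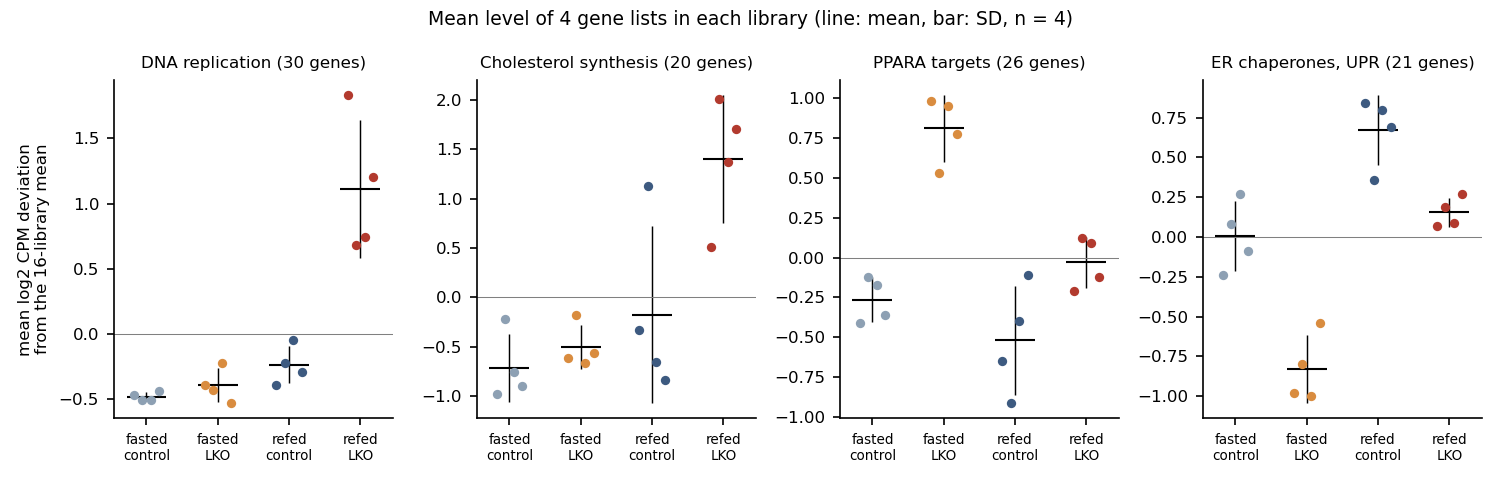
Mean level of 4 gene lists in each of the 16 libraries (points), as the mean log2 CPM deviation from the mean of all libraries, with group mean (line) and SD (bar, n = 4). Replication genes are high in refed LKO alone, cholesterol synthesis is high in refed LKO and in 1 refed control library, PPARA targets are high in fasted LKO, and chaperones are low in fasted LKO.

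Lipogenic genes of the SREBP programme gave no called interaction. Srebf1, the lipogenic SREBP, was at 36.4, 45.9, 35.1 and 34.6 CPM in fasted LKO, below every other library (146 to 560 CPM), with an interaction of 1.56 (SE 0.38, edgeR adjusted p = 0.0647). Of 19 lipogenesis genes tested, 15 had a positive interaction with a median of 0.47, 0 were called, and 5 fell (6.48% of all genes) and 1 rose (5.75%) in fasted LKO. That 1, a share near the background, was Elovl5, a fatty acid elongase, which was also 1.16 higher in refed LKO.

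Negative interactions were mostly genes that were high in fasted LKO and not in refed LKO. Slc16a1 (ENSMUSG00000032902, chromosome 3 from 104545984 to 104565778, plus strand, mm39) encodes a transporter of lactate and ketone bodies. It was at 95.9, 49.4, 73.3 and 95.5 CPM in fasted LKO and at 21.8 to 35.9 CPM in the 12 others. All 4 fasted LKO libraries lay above the other 12, and S45 was the nearest to them. The genotype difference was 1.49 in the fasted and −0.19 in the refed state, and the interaction of −1.68 (SE 0.25, edgeR adjusted p = 0.0168) was kept in all 16 fits that leave out 1 library.

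The acyl-CoA thioesterases Acot3 and Acot4, which split CoA esters in peroxisomes, were the 2 called genes of the PPARA target list. Acot3 was at 65.6, 137, 77.5 and 60.5 CPM in fasted LKO, at 25.7 to 58.7 CPM in both control groups, and at 26.3, 21.1, 22.1 and 15.3 CPM in refed LKO. Its interaction was −2.05 (SE 0.40, edgeR adjusted p = 0.0334). Acot4 was at 191, 192, 183 and 146 CPM in fasted LKO and at 65.6 to 153 CPM elsewhere, so S47 overlapped with refed control, and its interaction was −1.21 (SE 0.25, edgeR adjusted p = 0.0426). The Acot genes of this chromosome 12 cluster are near-identical and both overlap the lncRNA 4732463B04Rik on the opposite strand, so their counts are uncertain. The relatives Acot1 and Acot2 rose in fasted LKO by 1.89 and 2.19, with interactions of −1.36 and −1.24 that did not pass (edgeR adjusted p = 0.149 and 0.175).

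Across the PPARA targets, 22 of 26 tested rose in fasted LKO (5.75% of all genes) and 6 rose in refed LKO (2.28%). Refeeding lowered 16 in LKO (8.78% of all genes) and 0 in control (7.65%). The interaction was negative in 25, with a median of −0.42, and lower by the test in 2 (0.228% of all genes). Pdk4, the kinase that shuts off pyruvate dehydrogenase, was at 34.1, 6.28, 13.5 and 50 CPM in fasted LKO and 3.21 to 4.39 CPM in refed LKO, with an interaction of −2.79 (SE 0.71, edgeR adjusted p = 0.0707). Plin5, a lipid droplet protein, had −1.33 (SE 0.33, edgeR adjusted p = 0.0667). Ehhadh, of peroxisomal oxidation, was 2.97 higher in fasted and 2.42 higher in refed LKO, with an interaction of −0.55 (edgeR adjusted p = 0.65). The 20 genes of mitochondrial oxidation and ketogenesis had a median interaction of −0.05 and 0 calls, with 13 higher in fasted LKO (5.75% of all genes) and 8 higher in refed LKO (2.28%).

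Other genes were high in fasted LKO. Rab30, a Golgi GTPase, was at 64.3, 37.1, 51.1 and 57.2 CPM in fasted LKO and at 7.17 to 24.7 CPM in all others, with an interaction of −1.82 (SE 0.38, edgeR adjusted p = 0.0426). Ddhd2, a lipase, was at 36.8, 24.0, 35 and 29.0 CPM in fasted LKO and at 13 to 26.3 CPM elsewhere, where the top refed control library passed the lowest fasted LKO library (−1.04, SE 0.22, edgeR adjusted p = 0.0426). Wrnip1, a partner of the Werner helicase, was at 82.5, 47.7, 70.6 and 51.8 CPM in fasted LKO and at 27.2 to 44.5 CPM elsewhere (−1.05, SE 0.22, edgeR adjusted p = 0.0426). Fasted LKO did not overlap with any other group in Rab30 and Wrnip1. Ptpn9, a tyrosine phosphatase whose span overlaps the lncRNA Gm10658 on the opposite strand, was at 20.2, 18.2, 16.9 and 24.5 CPM against 9.38 to 14.8 CPM (−0.99, SE 0.19, edgeR adjusted p = 0.0328).

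Crat and Lipa, chosen here after their values were seen, were also higher in fasted LKO than in fasted control. Crat, the carnitine acetyltransferase of mitochondria and peroxisomes, was at 371, 282, 321 and 302 CPM in fasted LKO and at 115 to 174 CPM elsewhere, with an interaction of −0.83 (SE 0.17, edgeR adjusted p = 0.0406). Lipa, the acid lipase of lysosomes, was at 351, 221, 348 and 283 CPM in fasted LKO, 143 to 168 CPM in fasted control, and 190 to 223 CPM in the refed groups, so S45 overlapped with refed LKO. Refeeding raised Lipa by 0.41 in control and lowered it by 0.53 in LKO, and the interaction was −0.94 (SE 0.17, edgeR adjusted p = 0.0261). It was the 1 gene called among 18 of autophagy and lysosomes (0.228% of all genes were called lower). The remaining called genes in which fasted LKO stood above all others were Asap1, Lgals4, Map7, Rnf103, Tmem131, Rtf2, Ptbp3 and the lncRNA 1300002E11Rik, with interactions from −1.31 to −0.54.

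The converse, genes low in fasted LKO alone, held 3 named by size. Serpina6, the corticosteroid-binding globulin of plasma, was at 75.6, 173, 92.9 and 102 CPM in fasted LKO and at 244 to 400 CPM in all others, with an interaction of 1.35 (SE 0.26, edgeR adjusted p = 0.0337). Slc10a2, a sodium-dependent bile acid transporter best known in the ileum, was at 2.40, 3.17, 1.68 and 4.29 CPM in fasted LKO and at 7.29 to 28 CPM in all others. It rose on refeeding in both genotypes, by 1.02 in control and 2.74 in LKO, and the interaction was 1.72 (SE 0.37, edgeR adjusted p = 0.0447). It was the 1 called gene of 14 for bile acid transport (0.311% of all genes were called higher). Cholangiocytes also express Slc10a2, and their 5 markers summed to 33.5 to 80.8 CPM in fasted LKO and 33.3 to 56.4 CPM in fasted control, with a median interaction of −0.60 and 0 calls.

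Manf, a secreted protein of the endoplasmic reticulum that is induced when unfolded proteins accumulate, was at 29.3, 35.9, 28.6 and 68.1 CPM in fasted LKO and at 107 to 207 CPM in all others. The interaction was 1.46 (SE 0.32, edgeR adjusted p = 0.0489). Its annotated span overlaps Dcaf1 on the opposite and Rbm15b on the same strand. Manf was the 1 called of 21 chaperone and stress genes of that compartment (0.311% of all genes were called higher). Of the 21, 16 had a positive interaction, with a median of 0.17. In fasted LKO 17 of the 21 fell (6.48% of all genes) and in refed LKO 11 fell (1.35%). Refeeding raised 15 in control (7.79%) and 16 in LKO (9.28%).

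Neighbours of Manf on that list were lower in LKO in both states or had wide errors. Hyou1, a chaperone of the lumen, was at 56.0, 66.1, 55 and 103 CPM in fasted LKO and 139, 184, 224 and 139 CPM in fasted control, with an interaction of 0.88 (SE 0.28, edgeR adjusted p = 0.137). Sdf2l1 fell by 1.83 in fasted and by 1.01 in refed LKO, with an interaction of 0.83 (edgeR adjusted p = 0.203). Derl3 went the other way, at −0.87 (edgeR adjusted p = 0.606), with 41.8, 5.26, 21.7 and 55.1 CPM in refed control against 3.22 to 6.06 CPM in refed LKO.

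Further genes were low in fasted LKO alone. Psmb10, a catalytic subunit of the immunoproteasome (chromosome 8 from 106662367 to 106665076, minus strand, mm39), was at 32.9, 30.7, 28.5 and 36.1 CPM in fasted LKO and at 38.5 to 55.8 CPM elsewhere. Its interaction of 0.88 (SE 0.13, edgeR adjusted p = 0.0168) was kept in all 16 fits that leave out 1 library. Srm, the spermidine synthase, was at 28.9, 34.9, 35.5 and 32.1 CPM against 42.1 to 84.1 CPM (0.87, SE 0.15, edgeR adjusted p = 0.0193), and Slc9a3r1, a scaffold of membrane transporters, at 126, 201, 206 and 135 CPM against 253 to 542 CPM (1.06, SE 0.23, edgeR adjusted p = 0.0447). In each of these 3 the fasted LKO libraries lay below all 12 others. Srm, Slc9a3r1 and the rest of the group, Lin7a, Gsap, Snrpa, Ptma, Mrpl38 and the lncRNAs ENSMUSG00000120904 and Gm12718, were named after their values were seen. Gm12718 was listed at 0.0998, 0.113, 0 and 0 CPM in fasted LKO and at 0.948 to 4.15 CPM elsewhere, and no fold is given because its level in fasted LKO is at the limit of detection.

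A separate group was high in fasted control alone, with a fall on refeeding in control and with LKO lower already after the fast. Castor1 (ENSMUSG00000020424, chromosome 11 from 4168225 to 4172409, plus strand, mm39) is an arginine sensor that restrains the growth kinase mTORC1. It was at 4.82, 4.32, 5.12 and 5.62 CPM in fasted control and at 1.47 to 2.60 CPM in the 12 other libraries. Refeeding lowered it by 1.60 in control, and its change of 0.31 in LKO did not pass. The interaction of 1.91 (SE 0.25, edgeR adjusted p = 0.0122) was kept in all 16 fits that leave out 1 library.

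Eif5b, the initiation factor that joins the ribosomal subunits, was at 62.4, 58.1, 56.8 and 60.2 CPM in fasted control. It was at 45.6, 38.5, 41.2 and 35.4 CPM in fasted LKO, 35, 38.2, 43.3 and 41.8 CPM in refed control, and 46.4, 49, 52.2 and 48.7 CPM in refed LKO. Refeeding thus lowered it by 0.58 in control and raised it by 0.29 in LKO, with an interaction of 0.87 (SE 0.12, edgeR adjusted p = 0.0122), kept in all 16 fits. Its annotated span overlaps Rev1 on the opposite strand. The other genes of this shape, seen afterwards, were Limd2 (interaction 1.24, 24.3 to 31.8 CPM in fasted control and 6.33 to 17.1 CPM elsewhere), the deacetylase Hdac11 (0.75), Camk2n1 (0.64), Inf2 (0.70), Ifitm2 (0.64), Tor2a (0.50), the RNA polymerase subunit Polr2j (0.71), whose span overlaps Lrwd1, and mt-Tg, a mitochondrial tRNA for glycine (2.09, at 0.453 to 3.09 CPM). In each of these genes all 4 fasted control libraries lay above the other 12.

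**Figure D4:**
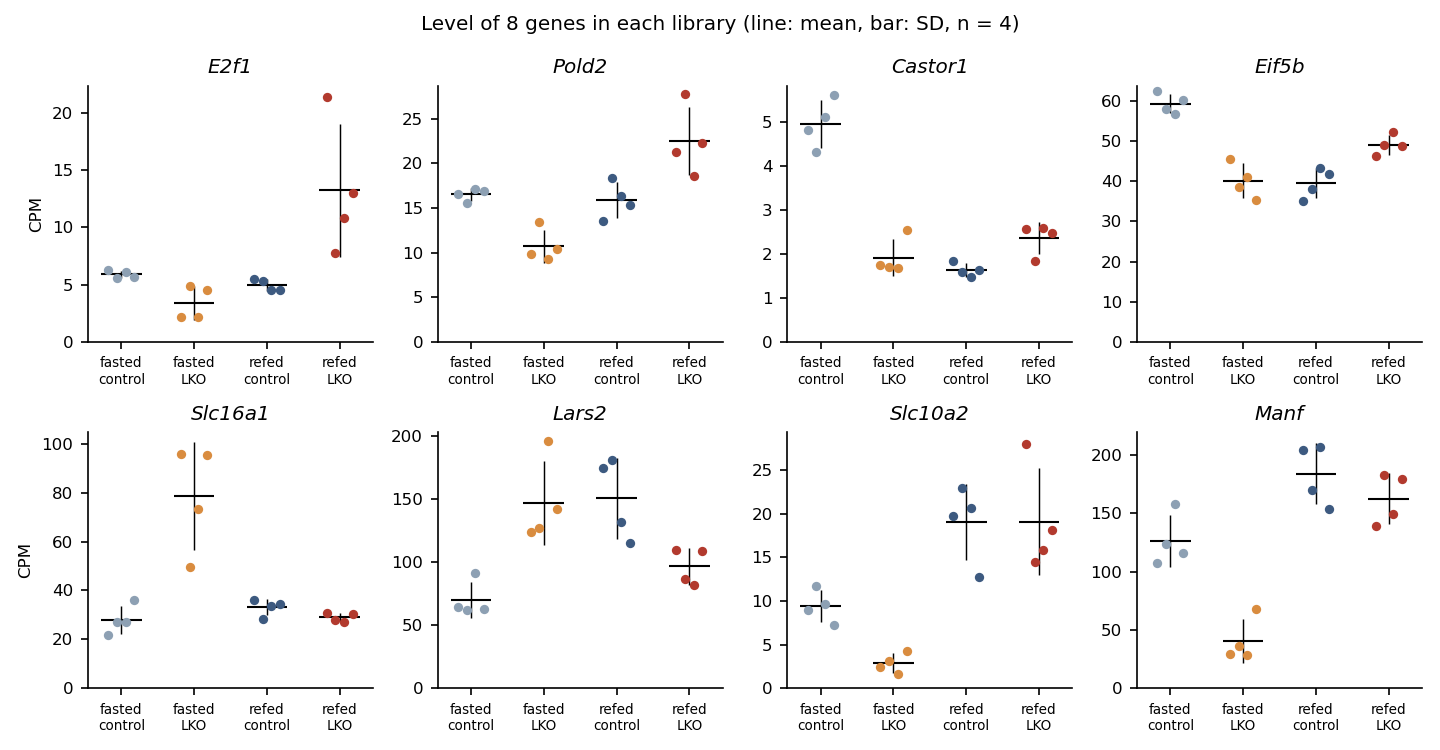
Level in CPM (vertical, from 0) of 8 called genes in each library (points) of the 4 groups, with group mean (line) and SD (bar, n = 4). E2f1 and Pold2 are highest in refed LKO, Castor1 and Eif5b in fasted control and Slc16a1 in fasted LKO, Lars2 is higher in LKO after the fast and lower after refeeding, and Slc10a2 and Manf are lowest in fasted LKO.

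In a further set LKO was above control after the fast, a called difference, and the estimate after refeeding was below 0. The refed differences were −0.64 for Lars2, −0.50 for Tfcp2l1, −0.29 for Mef2d, −0.31 for Mef2a and −0.45 for Nrip1, and none of these 5 passed (edgeR adjusted p between 0.0587 and 0.122). Lars2 (ENSMUSG00000035202, chromosome 9 from 123195992 to 123291731, plus strand, mm39) encodes the mitochondrial leucyl-tRNA synthetase. Lars2 was at 64.3, 62.0, 91.3 and 62.6 CPM in fasted control and 124, 127, 196 and 142 CPM in fasted LKO. It was at 175, 181, 132 and 115 CPM in refed control and 110, 86.8, 81.8 and 109 CPM in refed LKO. LKO was above control without overlap in the fasted state and below it without overlap in the refed state, and the interaction of −1.71 (SE 0.26, edgeR adjusted p = 0.0168) was kept in all 16 fits.

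The mouse Lars2 gene holds a stretch similar to ribosomal RNA, and loci of that kind were set beside it. Rn18s-rs5, a ribosomal RNA copy, was at 3640, 2990, 4340 and 3680 CPM in fasted LKO against 2100 to 3910 CPM in fasted control, and at 3040, 2000, 1930 and 2470 CPM in refed LKO against 3180 to 4870 CPM in refed control. Its interaction was −1.23 (SE 0.28, edgeR adjusted p = 0.0545). AY036118, another such locus, had −0.52 (edgeR adjusted p = 0.504). Of the 16 other mitochondrial tRNA synthetases, 14 had a positive interaction and 0 were called, Aars2 coming nearest at 0.46 (edgeR adjusted p = 0.0729). The part of ribosomal RNA in the counts of Lars2 was not tested.

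Transcription factors and coregulators were found among these genes. Tfcp2l1, a grainyhead-like factor, was at 7.54, 6.39, 7.17 and 9.14 CPM in fasted LKO and 3.98 to 4.96 CPM in fasted control, and at 3.60 to 5.41 CPM in refed LKO and 6.01 to 7.06 CPM in refed control. Its interaction was −1.25 (SE 0.20, edgeR adjusted p = 0.0193). Mef2d, a MADS-box factor, was at 38.0, 33.3, 43.4 and 40.1 CPM against 26.6 to 30.8 CPM after the fast, and at 25.6 to 30.6 CPM against 33.5 to 35.1 CPM after refeeding, with an interaction of −0.75 (SE 0.12, edgeR adjusted p = 0.0193). In both genes the genotypes did not overlap in either state, and both interactions were kept in all 16 fits. The paralogue Mef2a, picked out for that reason, had −0.79 (SE 0.14, edgeR adjusted p = 0.0246), kept in 13 fits, and its span overlaps Lysmd4. Nrip1, a corepressor of nuclear receptors, was at 7.51 to 11.0 CPM in fasted LKO, 4.49 to 7.41 CPM in fasted control, and, after refeeding, 7.44 to 9.14 CPM in control and 5.17 to 6.65 CPM in LKO (−1.06, SE 0.22, edgeR adjusted p = 0.0426).

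Ccng2, an unusual cyclin associated with exit from the cycle, was the counterpart of Pold2. It was at 13.1, 11.5, 13.1 and 17.9 CPM in fasted LKO, 7.06 to 10.3 CPM in both control groups, and 4.25, 6.21, 6.37 and 4.03 CPM in refed LKO. It rose by 0.69 in fasted LKO and fell by 0.75 in refed LKO, and refeeding changed it by −1.43 in LKO, which passed, and by 0.02 in control. The interaction was −1.44 (SE 0.24, edgeR adjusted p = 0.0193). Slc40a1, the iron exporter ferroportin, named after its values were seen, was at 71.0, 66.1, 62.6 and 64.3 CPM in refed LKO and at 71.9 to 114 CPM elsewhere (−0.83, SE 0.15, edgeR adjusted p = 0.032). Usp6nl, a GTPase-activating protein of endosomal traffic, was at 9.88 to 12.7 CPM in refed LKO and 15.3, 23.8, 16.0 and 15.3 CPM in refed control (−0.97, SE 0.19, edgeR adjusted p = 0.0426).

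Refed control was the low group in 5 genes, and 1 of these was named by its size. Camk2n2, an inhibitor of the calcium-dependent kinase CaMKII, was at 1.98, 3.13, 3.06 and 4.62 CPM in refed control and at 5.38 to 12.1 CPM elsewhere, with an interaction of 1.41 (SE 0.29, edgeR adjusted p = 0.0426). Psmb9, another immunoproteasome subunit, was at 24.2, 20.7, 20 and 25.0 CPM in refed control and at 33.9 to 58.2 CPM elsewhere (0.90, SE 0.19, edgeR adjusted p = 0.0426), and Cplane1, of ciliary assembly, at 4.02, 2.92, 4.38 and 4.48 CPM against 7.17 to 14.7 CPM (1.24, SE 0.24, edgeR adjusted p = 0.0328). Refeeding lowered all 3 in control, by 1.65, 0.81 and 0.97, and none changed by the test in LKO. Psmb9 overlaps Tap1 on the opposite strand, and Psmb9, Cplane1 and the lncRNA Gm30551, listed at 0.0639, 0, 0 and 0.0679 CPM in refed control and 0.131 to 3.56 CPM elsewhere, were picked after their values were seen. The immunoproteasome subunits Psmb9 and Psmb10 thus had positive interactions through different groups. Of 21 interferon-stimulated genes 0 had a called interaction, with a median of 0.12, where 0.538% of all genes were called. In refed LKO 18 of the 21 had a positive difference and 3 were called higher (2.28% of all genes).

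Cyp2u1, a fatty acid hydroxylase of the cytochrome P450 family, had estimates of the opposite signs. It was at 56.3, 59.7, 46.1 and 68.1 CPM in fasted control against 28.5, 46.3, 23.9 and 35.9 CPM in fasted LKO. It was at 40.8, 29.6, 53.7 and 52.7 CPM in refed control against 77.7, 64.6, 58.1 and 74.6 CPM in refed LKO. All refed LKO libraries lay above every fasted LKO and refed control library and overlapped with fasted control, and S45 of fasted LKO overlapped with both control groups. The interaction was 1.41 (SE 0.28, edgeR adjusted p = 0.0426), and the refed difference of 0.64 alone did not pass.

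The last 16 called genes, none of them named by the rule, were these. With a positive interaction, Mmp15, a membrane-bound metalloproteinase, was at 75.1 to 79.0 CPM in refed LKO and 35.8 to 52.3 CPM in fasted LKO, with the control groups between (0.79, SE 0.13, edgeR adjusted p = 0.0193). Endog, a mitochondrial nuclease whose span overlaps Spout1, was at 33.4 to 37.1 CPM in fasted LKO and 54.6 to 59.0 CPM in fasted control, with the refed groups overlapping (0.91, SE 0.15, edgeR adjusted p = 0.0193). Both were kept in 15 of the 16 fits that leave out 1 library. The initiation factor Eif2d, the decapping enzyme Dxo, Ino80b, Mpv17l2, Acy3 and 1810037I17Rik had interactions of 0.42 to 0.77. With a negative interaction, Atrn, Plpp5, Med13l, Ttc19 and the pseudogene Rpl36a-ps2 had −0.97 to −0.53. Of the noncoding genes, the lncRNA 9030616G12Rik was at 1.26 to 3.40 CPM in refed LKO and 4.42 to 12.4 CPM elsewhere (−1.96, SE 0.37, edgeR adjusted p = 0.0328), and the lncRNA ENSMUSG00000121050 and the miRNA gene ENSMUSG00002076173 had −2.0 and −1.84. Of all 78 called genes, 21 have an annotated span that overlaps another tested gene, 18 of them on the opposite strand, and their counts are uncertain to that extent.

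How far single calls rest on single libraries was read from the fits that leave out 1 of the 16. Called genes numbered 8 without the refed control library S48 and 282 without the refed control library S49, and of the original 78 they held 8 and 78. All 78 were kept without S49 and 77 without S45, and 15 without S50, 17 without S55 and 18 without S40. The 7 genes kept in all 16 fits were Castor1, Eif5b, Psmb10, Slc16a1, Lars2, Tfcp2l1 and Mef2d, 29 of the 78 were kept in 8 or more, and 0 changed sign. Of the genes named by size, Manf and Rab30 were kept in 2 fits, and Serpina6 and Slc10a2 in 3. Mcm6, Camk2n2, Acot4, Nrip1, Wrnip1 and Ddhd2 were kept in 4.

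**Figure D5:**
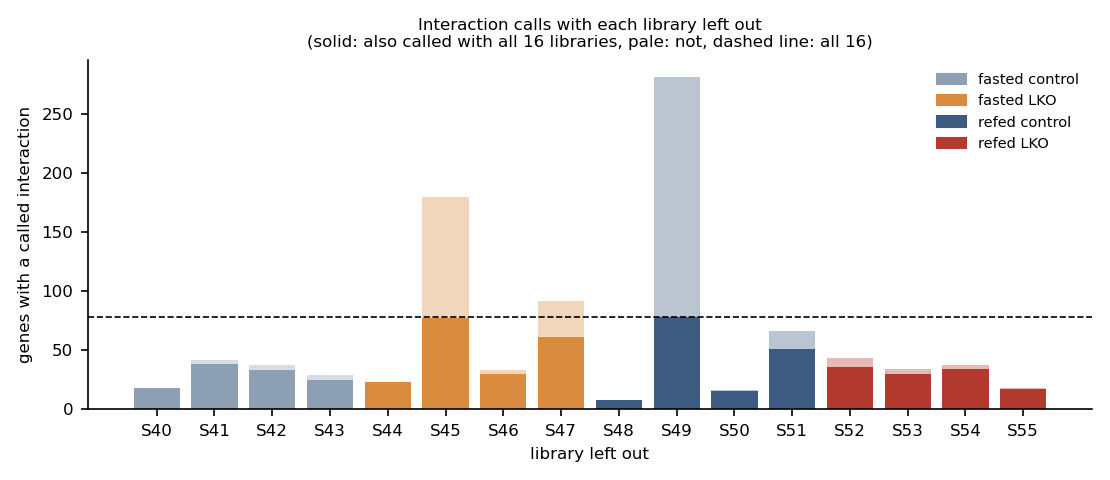
Number of genes with a called interaction (vertical) when each library named on the horizontal axis is left out, coloured by group, with solid bars for genes also called with all 16 libraries, pale bars for others and a dashed line at the count with all 16. The count is lowest without S48, at 8, and highest without S49, at 282.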

How the data were processed

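RNA was measured in 16 liver libraries. Per the labels, poly-A RNA was primed with random hexamers and dUTP was used in the libraries, and the submitters' processing notes name HISAT2 2.0.5 and the mm39 build. The counting tool, its use of strand and the annotation are not given in the sources used here. The authors deposited raw counts per gene in 4 tables of paired groups, along with gene lengths in bases, and 64 further per-library columns were left out here. Count columns S40 to S55 were given a group by the table headings they share, with no replicate number. Joining by gene identifier gave 25803 genes, with 0 counts differing between tables, and a gene missing from both tables of a library was set to 0 there (3148 genes).

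Genes passing filterByExpr (14488) were fitted with edgeR 4.0.16 and limma 3.58.1 in R 4.3.3: TMM scaling, glmQLFit on the 4 groups in 1 fit, and glmQLFTest for the interaction and its 4 component contrasts, with Benjamini-Hochberg adjustment. The biological coefficient of variation was 0.185. SE is the log2 value divided by the square root of F. List levels are means of log2 CPM with a prior count of 2. The scripts were tested on simulated data. DESeq2 1.42.0, limma-voom, other scalings, filters and each library left out were the alternatives.

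Genes were named by a rule: Cpt1a, the 12 largest positive and 12 largest negative interactions among called genes that code for protein, carry a symbol other than a predicted-gene name and average at least 1 CPM, the protein-coding genes kept in all 16 fits without 1 library, and list members. The members, the rule and the lists were chosen with earlier results of these data known. Marker lists covered hepatocytes, lymphocytes, macrophages, neutrophils, red cells, stellate cells, endothelium, cholangiocytes and adipocytes. Promoters came from RefSeq, by symbol, for 10547 tested genes. Some list members are not reported here by name.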

Additional observations from a re-analysis of the deposited data

Results flagged for a closer look

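Genotype differences that changed between the fasted and the refed state by edgeR's test of the difference itself were found for 45 genes with a positive and 33 with a negative value. Those named by size or by being kept without each library were, on the log2 scale and positive, Mcm6 2.64, Chaf1b 2.62, Chaf1a 2.22, E2f1 2.21, Castor1 1.91, Slc10a2 1.72, Gins1 1.54, Manf 1.46, Cyp2u1 1.41, Camk2n2 1.41, Serpina6 1.35, Rpa2 1.35, Psmb10 0.88 and Eif5b 0.87. The negative ones were Acot3 −2.05, Rab30 −1.82, Lars2 −1.71, Slc16a1 −1.68, Ccng2 −1.44, Tfcp2l1 −1.25, Acot4 −1.21, Nrip1 −1.06, Wrnip1 −1.05, Ddhd2 −1.04, Ptpn9 −0.99, Usp6nl −0.97 and Mef2d −0.75.

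In 8 of 180 sets of 4 libraries examined, 1 library lay far from the other 3, and chance gives about 1 in 20. Castor1 was highest in S47 among the fasted LKO libraries, at 2.55 CPM, and lowest in S53 among the refed LKO libraries, at 1.83 CPM. Gins1 was highest in S52 of refed LKO, at 10.7 CPM, and Psmb10 lowest in S54 of refed LKO, at 39.7 CPM. Usp6nl was highest in S49 of refed control, at 23.8 CPM, and Lars2 highest in S42 of fasted control, at 91.3 CPM. The mean log2 level of genes of fatty acid oxidation and ketogenesis was highest in S46 of fasted LKO, at 0.37, and that of cholangiocyte markers lowest in S41 of fasted control, at −0.83.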

How the results depend on the processing

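No paired analysis was possible because the count columns carry no replicate number of the sample titles. Called interactions numbered 78 with all libraries, 197 with a filter at 5 CPM (98 higher, 99 lower), 467 under DESeq2 (261 and 206), 26 with length and GC trends removed (16 and 10), and 108 under upper quartile scaling, where 65 were lower. Other scalings, limma-voom, robust dispersions and no filter gave 69 to 80. Of the 78, 75 were also called under upper quartile scaling, 75 under DESeq2 and 26 with length and GC trends removed. Leaving out 1 library gave 8 to 282 calls (4 to 130 higher, 4 to 152 lower), 1048 to 1985 for the fasted genotype contrast, 197 to 601 for the refed one, 1220 to 2483 for refeeding in control and 1795 to 2730 in LKO. The refed genotype contrast had 924 calls under DESeq2, and refeeding in control 1415 with length and GC trends removed. The interaction of Marco, −2.06, ran from −2.54 without S54 to 0.22 without S49. The median interaction of the G1 and S list was −0.08 in 1 setting. Why these settings differ was not tested. The lowest library total, 14721601 counts, limits genes near 1 CPM most.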

Other observations

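Gene lists not described above had 0 called interactions (0.538% of all genes were called) unless stated. Bile acid synthesis had a median of 0.15 over 16 genes, gluconeogenesis −0.06 over 19, glucose use and ChREBP targets 0.21 over 20, glycogen 0.15 over 13, insulin and FOXO targets −0.10 over 16, ATF4 and amino acid stress 0.14 over 20, and ribosome biogenesis 0.11 over 29. Clock output genes had 0.52 over 14 genes, 12 of them positive, and the core clock 0.00 over 12. Single genes came near the threshold by edgeR's test. Crem, a cAMP-responsive transcription factor, had −0.89 (SE 0.21, edgeR adjusted p = 0.0579), with refed control at 17.0 to 29.0 CPM and refed LKO at 12.4 to 14.5 CPM. Gk, the glycerol kinase, was at 179 to 280 CPM in fasted LKO, 72.2 to 104 CPM in fasted control, 88.2 to 128 CPM in refed control and 141 to 161 CPM in refed LKO (−0.88, SE 0.23, edgeR adjusted p = 0.0733). Enho, which encodes a secreted peptide, was at 11.7, 35.6, 23.4 and 49.2 CPM in refed LKO and 4.49 to 15.3 CPM elsewhere (2.17, SE 0.57, edgeR adjusted p = 0.0768).

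Genes of the mitochondrial genome had a median interaction of 0.03 over 15 and 0 calls, beside the called mitochondrial tRNA mt-Tg. Larger values were seen for mt-Co3, a cytochrome oxidase subunit, with 2.28 (SE 0.58, edgeR adjusted p = 0.0713), and mt-Nd4l, with 2.79 (SE 0.72, edgeR adjusted p = 0.0723). Levels of mt-Co3 were 560, 200, 521 and 473 CPM in fasted control, 185, 137, 186 and 121 CPM in fasted LKO, 152, 472, 95.9 and 243 CPM in refed control and 549, 555, 316 and 255 CPM in refed LKO. Fasted LKO lay below fasted control, and the refed groups overlapped. Mitochondrial sequences have near-identical copies in the nuclear genome, so these counts are uncertain.

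Markers of red blood cells had a median interaction of 1.11 over 4 genes with 0 calls, and Alas2, which makes haem in red cell precursors, was 1.04 lower in fasted LKO, a called difference. Neutrophil markers had 1 of 5 tested, the other 4 being below the filter. Stellate cell markers had a median of −0.17 over 6, and endothelial markers 0.04 over 5, with 0 calls. Adipocyte markers had 0.59 over the 2 tested of 5, Cfd and Car3, with 0 calls for the interaction. The other markers, Adipoq, Plin1 and Lep, were below the filter, with at most 9, 10 and 4 counts in any library. The values thus rest on Cfd and Car3 alone. Cfd and Car3 were both lower in fasted LKO by the test, with a median of −2.80, and had a median of −2.21 in refed LKO with 0 calls. They summed to 147 to 1170 CPM in fasted LKO and 1980 to 3440 CPM in fasted control.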
